A study of Mus musculus with 4 samples.

Results

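The 10 genes described here encode enzymes that make phosphatidylethanolamine and phosphatidylcholine, the main phospholipids of mammalian membranes. They were taken by symbol from the deposited expression matrix, and all 10 were found among the 23309 genes listed there. They were chosen by the change of Etnk1 in these same FPKM values, which the authors called, so its values are given as a description and were not tested again. RNA sequencing compared Chd2mut/mut mouse embryonic stem cells with wild-type (WT) cells, to ask how RNA levels differ when Chd2, a chromatin remodeler that moves nucleosomes with ATP, is mutated. Both genotypes are of the 129/Ola strain, and both were grown on gelatin in serum medium with leukemia inhibitory factor, which keeps the cells undifferentiated. Sample titles call the mutant Chd2KO, and the labels give neither the form of the mutation nor the number of lines it was studied in. Each genotype had 2 libraries, but the values analysed here are 1 FPKM (a fragment count per transcript length and library size) per gene and genotype. No standard deviation, counting interval or test between libraries could therefore be given, and significance is that of the q-values in the authors' deposited table.

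Cells make phosphatidylethanolamine from ethanolamine in a series of steps called the Kennedy pathway. A kinase phosphorylates ethanolamine, a cytidylyl transferase activates the product with CTP, and a phosphotransferase joins it to diacylglycerol. Choline follows a parallel branch to phosphatidylcholine. Phosphatidylethanolamine can also be made in mitochondria by decarboxylation of phosphatidylserine, and phosphatidylcholine can be made by methylation of phosphatidylethanolamine, a route best known from liver.

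In the mutant, Etnk1 rose and none of the other 9 genes was called. Etnk1 encodes ethanolamine kinase, the first enzyme of the ethanolamine branch. Its level was 30.3 FPKM in Chd2mut/mut cells and 18.0 FPKM in WT cells, a 1.69-fold difference. In the authors' deposited table its log2 fold change is 0.75 and its q-value 0.0103, the lowest there, shared by 55 genes. As background, the authors called 81 genes, 0.718% of 11276 with a q-value below 1, and 29 of them were higher in the mutant (0.257%) and 52 lower (0.461%). By fold change Etnk1 stood at position 15 of the 29 genes that were higher, and by its level in the mutant at position 7. Genes whose FPKM averaged 1 or more over the genotypes are called kept genes below. Of these 10766 genes, 160 differed by at least as much as Etnk1 in either direction, or 1.49%, and 67 of them were higher in the mutant, which describes the value by which the genes were chosen. In such bulk RNA, more cells expressing a gene and more RNA per cell cannot be told apart.

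**Figure D1:**
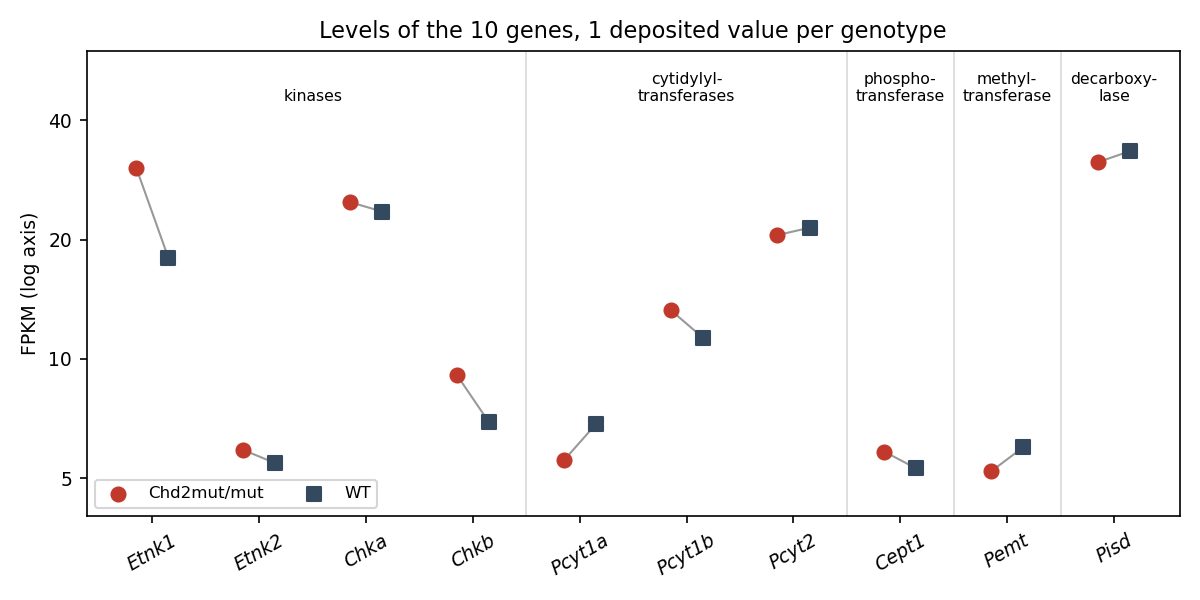
FPKM of the 10 genes on a log axis, with Chd2mut/mut as circles and WT as squares, 1 deposited value per genotype and hence no error bars, in the order of the reactions. Etnk1 lies at 30.3 FPKM in Chd2mut/mut and 18.0 FPKM in WT, and the other genes differ by 1.32-fold or less.

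By level, Etnk1, Etnk2 and Cept1 each stood 2 positions higher in the order of the 10 genes in the mutant than in WT, and Pcyt1a and Pemt 2 positions lower. In Chd2mut/mut cells the most abundant transcripts were Pisd at 31.4 FPKM and Etnk1 at 30.3 FPKM. In WT cells Pisd led at 33.5 FPKM and Etnk1 was in position 4, after Chka at 23.6 FPKM and Pcyt2 at 21.4 FPKM. All 10 genes passed the mean of 1 FPKM, and the lowest mean was 5.56 FPKM, for Cept1. Their summed level was 152 FPKM in the mutant and 138 FPKM in WT. Without Etnk1 the sums were 121.6 FPKM in the mutant and 120.3 FPKM in WT. The spread between libraries is unknown, so neighbours in the order with similar values cannot be separated.

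Because the next expressed gene on the chromosome, C2cd5, was also called, the windows at the starts of both genes are shown, together with those of the kinases Etnk2 and Chka, which were not called. The sequences are from RefSeq on GRCm38.p6, another build than the mm9 of the deposited values, and run from 250 bases before to 50 bases after an annotated start. The Etnk1 window is chr6:143166980-143167279 on the plus strand, that of C2cd5 chr6:143100103-143100402 on the minus strand, that of Etnk2 chr1:133363322-133363621 on the plus strand and that of Chka chr19:3851523-3851822 on the plus strand. Capitals mark matches on either strand to 3 motifs, and matches may overlap or touch. The GC box was searched as GGGCGG. The core of the cAMP response element was searched as TGACG. The last of them was the promoter box CCAAT.
Etnk1: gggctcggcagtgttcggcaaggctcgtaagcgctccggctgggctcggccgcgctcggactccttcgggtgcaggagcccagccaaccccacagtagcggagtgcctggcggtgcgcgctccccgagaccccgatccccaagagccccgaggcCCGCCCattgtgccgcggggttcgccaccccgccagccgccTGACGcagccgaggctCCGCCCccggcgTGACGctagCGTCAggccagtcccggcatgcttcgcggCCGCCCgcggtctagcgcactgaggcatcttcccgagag
C2cd5: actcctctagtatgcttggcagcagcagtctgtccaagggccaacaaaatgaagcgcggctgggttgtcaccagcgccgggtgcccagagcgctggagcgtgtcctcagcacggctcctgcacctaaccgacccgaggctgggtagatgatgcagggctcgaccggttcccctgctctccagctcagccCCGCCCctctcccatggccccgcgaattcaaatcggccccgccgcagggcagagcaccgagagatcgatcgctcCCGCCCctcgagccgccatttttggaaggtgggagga
Etnk2: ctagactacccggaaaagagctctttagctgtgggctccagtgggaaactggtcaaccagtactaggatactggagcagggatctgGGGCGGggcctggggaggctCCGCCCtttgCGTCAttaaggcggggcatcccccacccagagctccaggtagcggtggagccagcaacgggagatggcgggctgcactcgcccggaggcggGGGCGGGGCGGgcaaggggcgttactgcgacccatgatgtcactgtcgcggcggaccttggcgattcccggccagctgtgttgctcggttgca
Chka: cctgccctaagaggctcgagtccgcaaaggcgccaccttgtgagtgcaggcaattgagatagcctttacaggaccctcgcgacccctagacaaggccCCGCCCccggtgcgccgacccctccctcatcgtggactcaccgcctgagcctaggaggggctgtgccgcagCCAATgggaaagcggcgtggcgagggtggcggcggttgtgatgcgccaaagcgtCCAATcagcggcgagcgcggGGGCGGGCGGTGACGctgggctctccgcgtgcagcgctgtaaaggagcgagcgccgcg

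The Etnk1 window was rich in CpG dinucleotides, with 38 of them and a GC content of 73.7%, against medians of 7 and 52.7% over all 32851 windows in the table. At least as many CpG as in Etnk1 were found in 4.95% of windows. C2cd5 had 23 CpG, Etnk2 21 and Chka 33. The window of Chkb, the other uncalled kinase, had 14 CpG and a GC content of 51.7%, with 1 TATAAA match and 2 CCAAT matches. GC boxes numbered 3 in Etnk1, 2 in C2cd5, 4 in Etnk2 and 3 in Chka, and 35.7% of all windows held at least 1. The TGACG motif occurred 3 times in Etnk1, once in Etnk2, once in Chka and not in C2cd5, against 20.8% of all windows with a match. CCAAT was matched 2 times in Chka and in none of the other windows shown (37.4% of all windows). Neither TATAAA, found in 13.6% of all windows, nor the E-box CACGTG, found in 7.15%, was present in any of the windows shown. Such matches describe the letters of these windows and not binding.

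Kinases act at the entry of both branches. Etnk2, a second ethanolamine kinase, was at 5.89 FPKM in the mutant and 5.45 FPKM in WT. The choline kinases Chka and Chkb, which phosphorylate choline and can also accept ethanolamine, differed by less than Etnk1. Chka was at 24.9 FPKM in the mutant and 23.6 FPKM in WT. Chkb was at 9.10 FPKM in the mutant and 6.92 FPKM in WT, a 1.32-fold difference that the authors' deposited table does not call (q = 0.663). Of the uncalled members Chkb had the largest difference, and 6.16% of kept genes differed by at least as much in either direction. Etnk1 made up 43.2% of the summed FPKM of the 4 kinases in the mutant and 33.4% in WT, while Chka made up 35.4% in the mutant and 43.7% in WT. Etnk1 thus stood above Chka in the mutant and below it in WT, with ratios of 1.22 in the mutant and 0.763 in WT. Over Etnk2, the ratio of Etnk1 was 5.15 in the mutant and 3.30 in WT. The sum of the 3 other kinases was 39.9 FPKM in the mutant and 35.9 FPKM in WT.

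Cytidylyl transferases catalyse the next step, which is regarded as rate-limiting in the choline branch. Pcyt2, which activates phosphoethanolamine, the product of Etnk1, was at 20.5 FPKM in the mutant and 21.4 FPKM in WT. Etnk1 exceeded Pcyt2 in the mutant, with a ratio of 1.48, and lay below it in WT, with a ratio of 0.839. The paralogs Pcyt1a and Pcyt1b activate phosphocholine, and their values differed in opposite directions. Pcyt1a was at 5.54 FPKM in the mutant and 6.83 FPKM in WT (authors' deposited table, q = 0.687). Pcyt1b was at 13.3 FPKM in the mutant and 11.3 FPKM in WT (authors' deposited table, q = 0.854). Neither was called, and their sum was 18.8 FPKM in the mutant and 18.2 FPKM in WT. In these cells Pcyt1b, encoded on the X chromosome, stood above Pcyt1a in both genotypes, with a Pcyt1b to Pcyt1a ratio of 2.40 in the mutant and 1.66 in WT.

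The last steps showed small differences, none of them called. Cept1, which joins either activated headgroup to diacylglycerol, was at 5.83 FPKM in the mutant and 5.29 FPKM in WT. Its functional relatives outside the 10 genes are the choline-specific Chpt1 and the ethanolamine-specific enzyme listed under its older symbol Ept1. Chpt1 was at 3.74 FPKM in the mutant and 4.48 FPKM in WT, and Ept1 at 5.96 FPKM in the mutant and 6.24 FPKM in WT. The 3 terminal transferases summed to 15.5 FPKM in the mutant and 16.0 FPKM in WT. Pemt, the methyltransferase that converts phosphatidylethanolamine into phosphatidylcholine, was at 5.20 FPKM in the mutant and 5.98 FPKM in WT. Pisd, the mitochondrial phosphatidylserine decarboxylase, was at 31.4 FPKM in the mutant and 33.5 FPKM in WT, 6.04 times the level of Pemt in the mutant and 5.60 times in WT. The authors' deposited table gives Cept1, Pemt and Pisd a q-value of 0.998 each.

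As a set, 6 of the 10 genes were above 0 and 4 below on the difference of log2(FPKM + 1), mutant minus WT. Their median difference was 0.08, or 0.08 for the 9 genes other than Etnk1, against -0.0012 for all kept genes. The log2 fold changes of the 9 in the authors' deposited table ran from -0.30 for Pcyt1a to 0.40 for Chkb, and their q-values from 0.663 to 0.998.

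**Figure D2:**
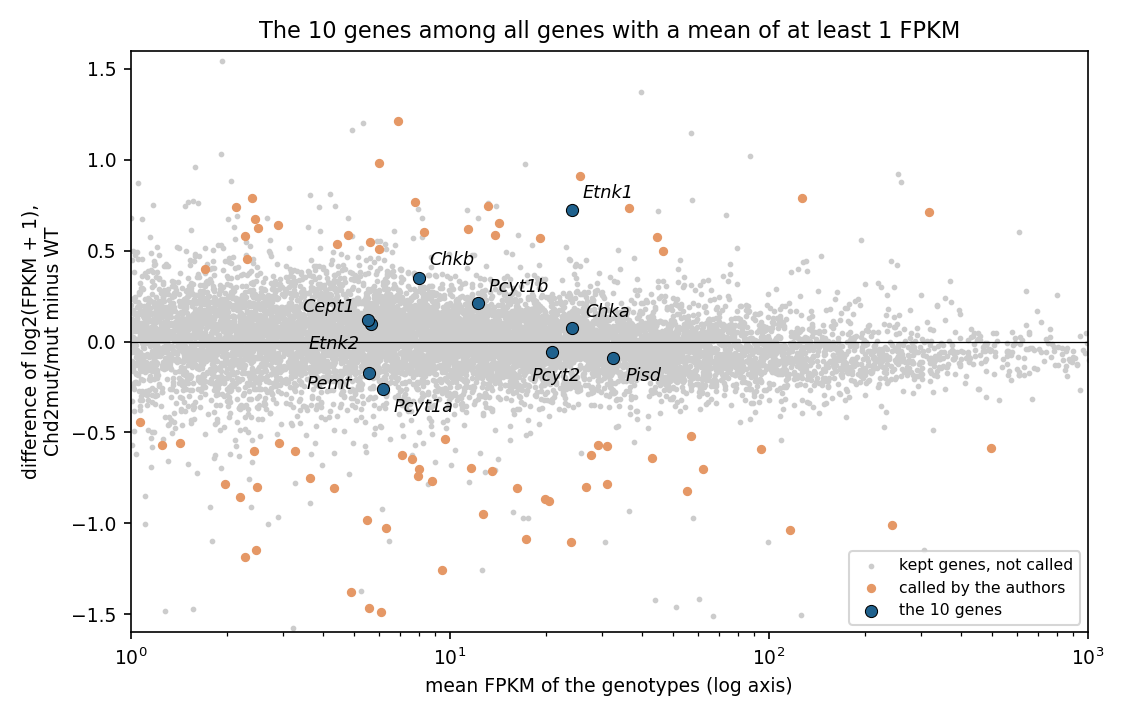
Difference of log2(FPKM + 1), Chd2mut/mut minus WT, against the mean FPKM of the genotypes on a log axis for the kept genes, with genes called by the authors in orange and the 10 genes in blue. Etnk1 lies at 0.72 among called genes, the other 9 lie between -0.26 and 0.35 within the grey cloud, and 192 genes fall outside the axes.

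How well single values can be read depends on transcript length and on sequence shared with other genes. If all reads of a gene came from its longest coding transcript in GENCODE M21, its FPKM times the length in kilobases is a relative measure of its fragments. On this measure Etnk1, with a 6433-base transcript, had 195 in the mutant and 116 in WT, the most of the 10 genes in either genotype. Pemt, with 1003 bases, had 5.21 in the mutant and 5.998 in WT, the fewest. Of the 50-base stretches of the longest Etnk1 transcript, 1.68% also occurred in another annotated gene, its antisense partner 1700126G02Rik. The shares were 0% for Etnk2, Pcyt2 and Pemt, 1.16% for Chka and 0.165% for Pcyt1b. Other genes shared more: 89.9% of Chkb, mostly with the overlapping gene model Gm44502, 35.3% of Pisd, mostly with the overlapping Gm20671, and 26.1% of Cept1, all with the opposite-strand Dennd2d. Pcyt1a shared 10.9% with Slc51a on the opposite strand. The sources used here do not state that strand was used in counting. Gm44502 and Gm20671 are not listed under these symbols in the deposited expression matrix. Whether reads there were withheld from Chkb or Pisd is therefore unknown. Levels of Dennd2d, at 0.0653 FPKM in the mutant and 0.0406 FPKM in WT, and of Slc51a, at 0.950 FPKM in the mutant and 0.771 FPKM in WT, were far below those of Cept1 and Pcyt1a.

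Chkb lies next to Cpt1b, which encodes a muscle-type carnitine palmitoyltransferase. Cpt1b was at 0.983 FPKM in the mutant and 0.188 FPKM in WT, below the mean of 1 FPKM and not called (q = 0.941 in the authors' deposited table). The 2 genes summed to 10.1 FPKM in the mutant and 7.11 FPKM in WT.

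Pisd has 3 copies listed as pseudogenes, whose values went in different directions. Pisd-ps1 was at 10.3 FPKM in the mutant and 6.04 FPKM in WT. Pisd-ps2 was at 2.099 FPKM in the mutant and 2.64 FPKM in WT. Pisd-ps3 was at 0.567 FPKM in the mutant and 4.803 FPKM in WT. None was called in the authors' deposited table, with q-values of 0.950 for Pisd-ps1 and 0.951 for Pisd-ps2. Pisd-ps3 is not among the genes with a q-value below 1 and may not have been tested. Its lack of a call therefore says nothing about its difference. The 3 copies summed to 12.9 FPKM in the mutant and 13.5 FPKM in WT, and together with Pisd to 44.3 FPKM in the mutant and 47.0 FPKM in WT. Of the 50-base stretches of Pisd, 8.72% occurred in Pisd-ps2 and 5.20% in Pisd-ps1, and 11.9% of those of Pisd-ps1 occurred in Pisd. Values of these copies are therefore uncertain, since reads from shared stretches could be placed in more than one of them, and Pisd-ps3 was not compared by sequence here.

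The genes most like Etnk1 in their change were Ap1m2, Ifitm1, Dtx1, Mid1 and C2cd5, out of 27 other called genes higher in the mutant with a mean of at least 1 FPKM. Likeness was the distance in log2 fold change in the authors' deposited table, which compares only 1 value for each of 2 genotypes. Ap1m2, a clathrin adaptor subunit of epithelial cells, was nearest, at a distance of 0.0018, with 45.9 FPKM in the mutant and 27.2 FPKM in WT. Ifitm1, of the interferon-induced transmembrane family, was at 396 FPKM in the mutant and 241 FPKM in WT. Dtx1, a regulator of Notch signalling, was at 5.96 FPKM in the mutant and 3.63 FPKM in WT, and the microtubule-associated ubiquitin ligase Mid1 at 161 FPKM in the mutant and 92.8 FPKM in WT.

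C2cd5, which encodes a C2 domain protein of membrane traffic, was at 16.7 FPKM in the mutant and 9.57 FPKM in WT, a 1.75-fold difference beside the 1.69-fold difference of Etnk1. In the RefSeq gene order of GRCm38 it is the nearest kept protein-coding gene to Etnk1 on chromosome 6, and the genes point away from each other. This look at neighbours was added after the values had been seen. Of the 5 kept genes on either side of Etnk1, C2cd5 was the only one called. Among the uncalled, Ldhb was at 148 FPKM in the mutant and 109 FPKM in WT (q = 0.159 in the authors' deposited table), Cmas at 44.8 FPKM in the mutant and 38.0 FPKM in WT, and Bcat1, next on the other side, at 26.3 FPKM in the mutant and 29.0 FPKM in WT. The other 9 members had no called gene among the 5 nearest kept genes on either side. Over all 10 members 1 of 100 such neighbours was called, close to the 0.73% of all kept and placed genes that were called. Over the genome, 2 of 10253 pairs of adjacent kept protein-coding genes were called together: C2cd5 with Etnk1, both higher in the mutant, and Igsf23 with Ceacam20 on chromosome 7, both lower. These 4 genes were among 75 called genes that could be placed, and the number of such pairs expected by chance was not worked out.

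**Figure D3:**
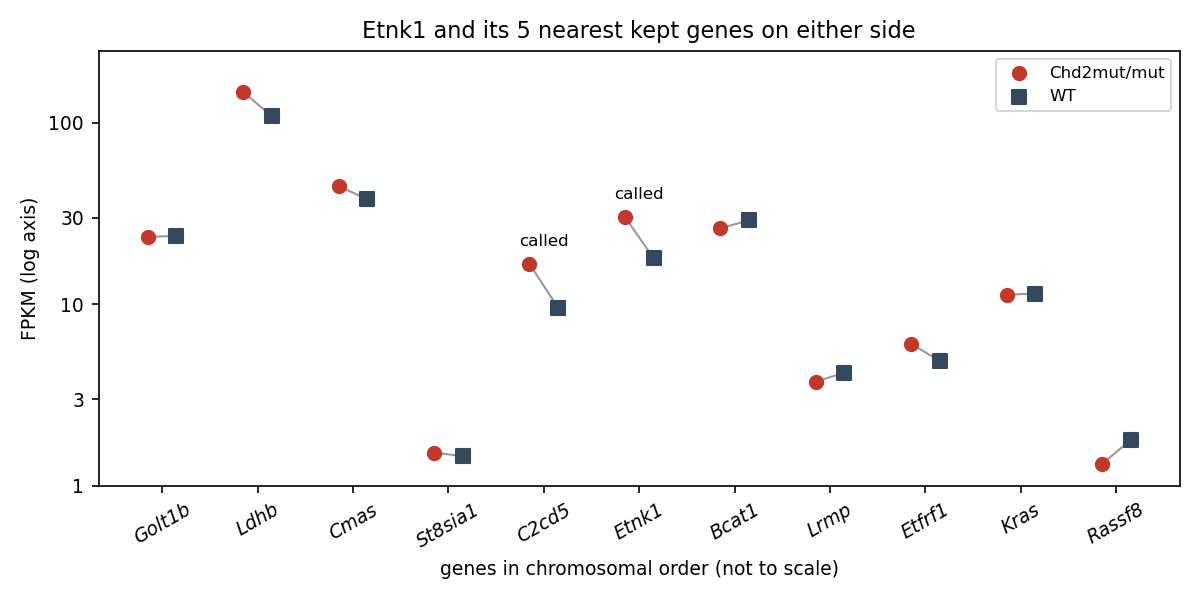
FPKM on a log axis of Etnk1 and the 5 nearest kept protein-coding genes on either side in chromosomal order, Chd2mut/mut as circles and WT as squares. C2cd5 and Etnk1, side by side, are the called genes, at 16.7 and 30.3 FPKM in Chd2mut/mut and 9.57 and 18.0 FPKM in WT.

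The 7 lists made for the wider phospholipid network held no call. Acp6 and Tmem30b, called genes of phospholipid metabolism and transport outside these lists, are described under the other observations. The lists named 78 genes, of which 76 were found in the table, 58 had a q-value under 1 and 55 were kept. The 2 others, Flvcr1 and Flvcr2, were not analysed here. With 0.718% of all genes with such a q-value called, 0 calls among 58 genes is close to the background. The table used here gives q-values and no unadjusted p-values, and the lowest q-value in these lists was 0.205. On the log2(FPKM + 1) scale 33 kept genes were above 0 and 22 below, with a median difference of 0.04.

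Among transporters that bring choline into cells, Slc44a1 was at 19.8 FPKM in the mutant and 17.0 FPKM in WT. Slc44a2 was at 12.2 FPKM in the mutant and 10.2 FPKM in WT, and Slc44a4 at 4.64 FPKM in the mutant and 4.32 FPKM in WT. These 3 were the kept members of that list, and all were above 0 and uncalled. Their median difference was 0.21, the largest of the 7 lists. The neuronal high-affinity choline transporter Slc5a7 was listed at 0 in both genotypes. Of the other branch-point enzymes, the phosphatidylserine synthase Ptdss2, which supplies the substrate of Pisd from phosphatidylethanolamine, was at 26.7 FPKM in the mutant and 26.3 FPKM in WT. Sgpl1, the lyase that releases phosphoethanolamine from sphingosine phosphate, was at 14.8 FPKM in the mutant and 16.0 FPKM in WT, and the phospholipase D gene Pld2 at 1.07 FPKM in the mutant and 0.960 FPKM in WT. The list had a median of -0.02, with 3 of 6 kept genes above 0.

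Diacylglycerol is the acceptor for both activated headgroups. In its list Dgat2, which diverts diacylglycerol into triglyceride, had the largest difference, at 1.55 FPKM in the mutant and 2.70 FPKM in WT, with the q-value of 0.205 in the authors' deposited table. Its counterpart Dgat1 was at 8.82 FPKM in the mutant and 7.91 FPKM in WT. Agpat2, an acyltransferase of phosphatidic acid synthesis and the most abundant gene of the list, was at 34.2 FPKM in the mutant and 39.9 FPKM in WT. Of 13 kept genes 8 were above 0, and the median was 0.04.

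In the branch through CDP-diacylglycerol, which leads to cardiolipin and phosphatidylinositol, 3 of 8 kept genes were above 0, with a median of -0.05. Cds2, a CDP-diacylglycerol synthase, was at 27.8 FPKM in the mutant and 22.1 FPKM in WT (authors' deposited table, q = 0.452). Tafazzin, the cardiolipin remodelling enzyme listed as Taz, was at 9.03 FPKM in the mutant and 7.30 FPKM in WT, and Tamm41, the mitochondrial CDP-diacylglycerol synthase, at 27.6 FPKM in the mutant and 30.9 FPKM in WT.

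Remodelling and breakdown genes had 11 of 15 kept members above 0 and a median of 0.09. Pnpla7, a lysophospholipase, was at 2.22 FPKM in the mutant and 1.59 FPKM in WT. The acyltransferase Mboat2 was at 6.52 FPKM in the mutant and 5.45 FPKM in WT, and the glycerophosphodiesterase Gde1 at 13.5 FPKM in the mutant and 15.1 FPKM in WT. Lypla1, the most abundant gene of this list, was at 52.8 FPKM in the mutant and 50.1 FPKM in WT. Genes that exchange the choline headgroup with sphingomyelin were 3 above and 3 below 0, with a median of -0.04. The sphingomyelin synthase Sgms2 was at 1.46 FPKM in the mutant and 1.90 FPKM in WT, and the sphingomyelinases Smpd2 at 9.94 FPKM in the mutant and 11.5 FPKM in WT and Smpd4 at 28.7 FPKM in the mutant and 30.7 FPKM in WT.

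Choline dehydrogenase, Chdh, the first enzyme of choline oxidation, was at 0.00661 FPKM in the mutant and 0.00567 FPKM in WT. Of the 11 genes for choline oxidation and methyl supply 4 were kept, 2 above 0 and 2 below, with a median of -0.01. Ahcy, which clears the S-adenosylhomocysteine that Pemt and other methyltransferases produce, was at 232 FPKM in the mutant and 267 FPKM in WT. Mat2b, a regulatory subunit of S-adenosylmethionine synthesis, was at 60.1 FPKM in the mutant and 57.6 FPKM in WT, and Aldh7a1 at 43.4 FPKM in the mutant and 44.4 FPKM in WT.

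**Figure D4:**
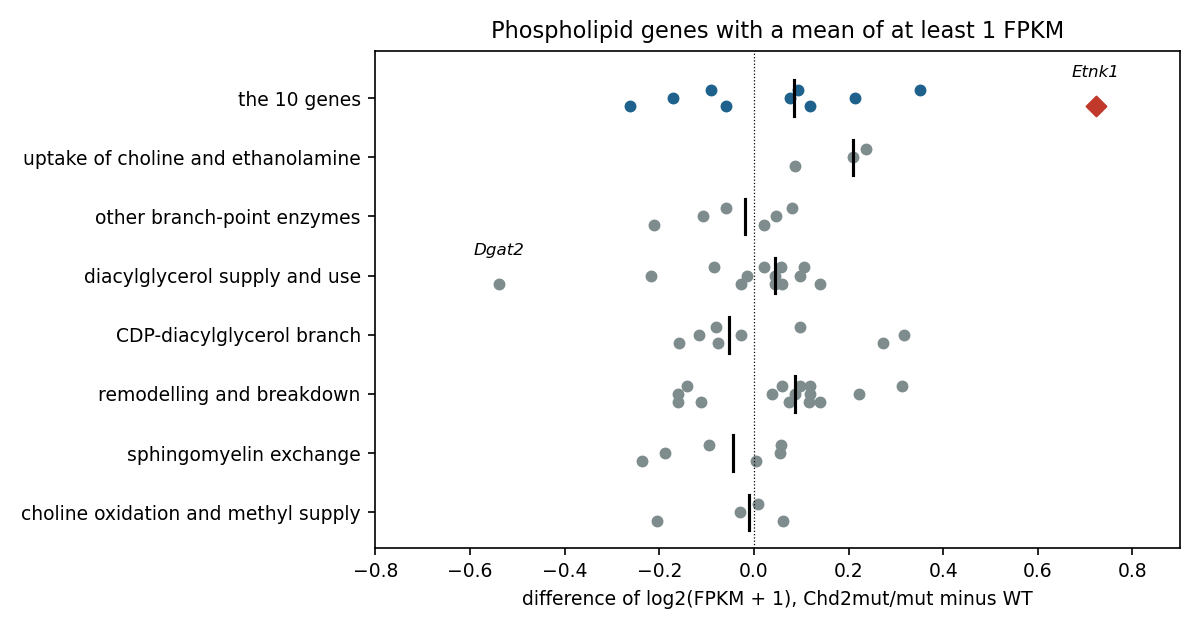
Difference of log2(FPKM + 1), Chd2mut/mut minus WT, for the kept genes of each phospholipid list, with 1 point per gene, a vertical bar at the median of the list and a red diamond for the gene called by the authors. Etnk1 at 0.72 is the only called gene in these lists, and Dgat2 at -0.54 lies farthest below 0.

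The labelled cell type matched its markers, and Chd2 was lower in the mutant. Chd2 was at 5.69 FPKM in the mutant and 10.2 FPKM in WT, so that 55.9% of the WT level of its RNA remained, and the authors' deposited table gives a log2 fold change of -0.84 with q = 0.0103. All 10 embryonic stem cell markers were kept and none was called, close to the background of 0.718%. The lowest of them, Klf4, was at 18.1 FPKM in the mutant and 16.7 FPKM in WT. On the log2(FPKM + 1) scale 8 of these markers were above 0 and 2 below, with a median difference of 0.15. Nanog was at 150.1 FPKM in the mutant and 114 FPKM in WT, and Sox2 at 222 FPKM in the mutant and 178 FPKM in WT. Of the 9 fibroblast markers, Col3a1, Lum and Postn were listed at 0 in both genotypes. The summed fibroblast marker level was 88.2 FPKM in the mutant and 172 FPKM in WT, mostly from Vim, which fell to 76.3 FPKM in the mutant, against 158 FPKM in WT and was called, and from Thy1, at 11.5 FPKM in the mutant and 14.2 FPKM in WT. The collagen gene Col1a1, which defines fibroblasts more closely, was at 0.0390 FPKM in the mutant and 0.0741 FPKM in WT. The part of these marker differences in the values of the 10 genes was not tested. None of 7 primitive endoderm markers and 2 of 7 trophoblast markers were kept. The 2 kept were not called, which is also close to that background, and no endoderm marker had a q-value below 1.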

How the data were processed

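RNA was sequenced from 2 Chd2mut/mut and 2 WT libraries (lots 1 and 2). Per the submitters' processing notes, the authors used bcl2fastq 2.17.1.14, TopHat2 2.1.0 and Cufflinks with build mm9. Not given in the sources used here are the Cufflinks version, the annotation and the test behind the q-values. Per the file headers, the authors deposited 1 FPKM value per gene and genotype, a log2 fold change of mutant over WT, a q-value and a call. All 81 calls have a q-value under 0.05. Depth is unknown, and nothing says whether the lots were separate cultures, so the q-values may rest on technical spread.

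Genes averaging 1 FPKM or more over the genotypes were kept, and differences were computed as log2(FPKM + 1), mutant minus WT, which understates changes of low genes. Folds are ratios of FPKM. Members and lists were chosen with earlier results of these data known. Named genes were the members, the Pisd copies, Chd2, the 5 genes nearest to Etnk1 in log2 fold change, and from each list any called gene, the 3 largest differences and the most abundant gene. Slc5a7, Chdh, Ept1, Vim and Cpt1b, the overlapping genes, the marker genes named and the neighbours were chosen after their values were seen. Gene order and start windows came from RefSeq (GRCm38.p6, 9 of 10 members with a window), and transcripts from GENCODE M21. Python 3.11.15 and pandas 2.3.3 were used, and the calculations were tested on simulated data.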

Additional observations from a re-analysis of the deposited data

How the results depend on the processing

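The difference of Etnk1 on the log2 scale was 0.72, and between 0.72 and 0.75 with a pseudocount of 0.1, with none, with the median set to 0 and with quantile normalization. The median of the 10 genes was 0.08, between 0.07 and 0.09 in these settings, and 0.08 without Etnk1. Using no filter or a mean of at least 5 FPKM could not change it, since the lowest mean of the 10 genes is 5.56 FPKM. Of 38 alternative values of the 9 uncalled genes 0 changed sign, and 2, both smaller under quantile normalization, moved by over 1.5 times: Etnk2 to 0.06 and Pisd to -0.05. Another pseudocount cannot change the sign of a single gene, and setting the median to 0 multiplied mutant FPKM by only 1.0009. Only quantile normalization and the sums given next could thus have changed a sign. Sums of Pisd with its copies and of Chkb with Cpt1b, both added after seeing the data, kept the sign. Of 28 alternative list medians 1 changed sign, that of choline oxidation and methyl supply, at 0.04 with quantile normalization, against -0.01. A q of at most 0.02 or a mean of at least 5 FPKM left Etnk1 as the 1 call among the 10 genes and 0 calls in the other lists. Neither count could have changed, because stricter rules cannot add calls and Etnk1 passes both. Its q-value in the authors' deposited table is 0.0103 and its mean 24.2 FPKM. The settings of this section rescale or filter 2 columns and cannot stand for replicates. No paired analysis was possible because the columns hold 1 value per genotype and no lot, and for the same reason no library could be left out.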

Other observations

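Genes that move or use phosphatidylethanolamine were looked at after their values had been seen, so their choice is not independent of the data. Tmem30b, a subunit of the flippases that move phosphatidylethanolamine and phosphatidylserine to the inner face of membranes, rose to 2.93 FPKM in the mutant, against 1.63 FPKM in WT. The authors' deposited table gives it q = 0.0487, the highest q-value of any called gene. Its paralog Tmem30a was higher in level, at 8.79 FPKM in the mutant and 8.08 FPKM in WT, and was not called. Of the 15 flippase genes listed, 9 had a q-value below 1 and 0 were called, close to the background of 0.718%. The 8 kept flippase genes had differences between -0.03 and 0.09 on the log2(FPKM + 1) scale. Acp6, a lysophosphatidic acid phosphatase of mitochondria, fell to 46.8 FPKM in the mutant, against 67.5 FPKM in WT, with q = 0.0434 in the authors' deposited table.

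Among genes that use phosphatidylethanolamine, 4 for GPI anchors and 14 for autophagy had a q-value below 1 and 0 were called, close to the background of 0.718%. The 4 genes listed for the transfer of ethanolamine phosphate from it to GPI anchors included Pigg. Its level was 3.32 FPKM in the mutant and 2.47 FPKM in WT (q = 0.548 in the authors' deposited table). Of the 15 genes for Atg8 proteins, their processing and joining to phosphatidylethanolamine in autophagy, 14 were kept, 10 above 0 and 4 below. Their median was 0.06. Gabarapl2, an Atg8 protein, was at 109 FPKM in the mutant and 144 FPKM in WT, with q = 0.266 in the authors' deposited table.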
